A study of Mus musculus with 3 samples.

Results

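MHC class I molecules and the machinery that supplies them with peptides were followed in glomerular cells of 3 groups: control mice, lupus-prone MRL/lpr mice, and MRL/lpr mice injected with human mesenchymal stem cells from umbilical cord (hUC-MSCs). The set was chosen by name and holds 10 of the 32285 genes of the count tables: *H2-K1*, *H2-D1*, *H2-T23*, *B2m*, *Tap1*, *Tap2*, *Tapbp*, *Psmb8*, *Psmb9* and *Nlrc5*, and all 10 were found. Glomeruli were prepared from collagenase-digested kidneys and dissociated, and in the droplets each RNA molecule received a unique molecular identifier (UMI), so that the counts are counts of molecules. Each group had 1 library, and the treated mice had received 800000 hUC-MSCs by tail vein. MRL/lpr mice carry the lpr mutation of *Fas*, a death receptor, and MRL and Balb/c mice were females bought at 6 to 8 weeks of age. MRL/lpr mice entered the study at about 16 weeks, and their libraries were taken 21 days after injection. The age of the control mice at sampling is not given. The labels of this experiment do not name the control strain. The study's other experiments use MRL/MpJ mice as controls, and its methods also name Balb/c and C57 mice. Balb/c and C57 mice differ from MRL strains in their H2 haplotype, the set of class I and class II alleles of a strain. Therefore disease, strain, age and library cannot be told apart between control and MRL/lpr mice. With 1 library per group the spread between mice is not known and no difference was tested.

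A class I molecule is a heavy chain held together by beta-2 microglobulin, and it shows short peptides from inside the cell to CD8 T cells. *H2-K1* and *H2-D1* encode the classical heavy chains, *H2-T23* encodes Qa-1, a non-classical chain that presents leader peptides to NK cell receptors, and *B2m* encodes beta-2 microglobulin. Peptides are cut by the proteasome, in which *Psmb8* and *Psmb9* replace constitutive catalytic subunits under interferon and form the immunoproteasome. They are pumped into the endoplasmic reticulum by the transporter of *Tap1* and *Tap2*, and *Tapbp* encodes tapasin, which tethers the transporter to the empty heavy chain. *Nlrc5* encodes the transactivator that drives transcription of class I genes from the conserved SXY module of their promoters. In kidney, interferon is known to raise class I on tubule cells, which carry little of it at rest.

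Most of these genes lie close together. The annotation (GENCODE M21, GRCm38) places 8 of 10 on chromosome 17, in the H2 complex, and all 10 are protein-coding. *H2-K1* (ENSMUSG00000061232) spans chr17:33996017-34000347 on the minus strand, *Tapbp* chr17:33915899-33929292 on the plus strand, *H2-D1* (ENSMUSG00000073411) chr17:35262730-35267499 on the plus strand and *H2-T23* chr17:36029773-36032855 on the minus strand. *Psmb9* (chr17:34181987-34187764, minus strand), *Tap1* (chr17:34187553-34197225, plus strand), *Psmb8* (chr17:34197721-34201454, plus strand) and *Tap2* (chr17:34203527-34216321, plus strand) follow each other in a row. *B2m* (ENSMUSG00000060802) is at chr2:122147686-122153083 on the plus strand. *Nlrc5* is at chr8:94434356-94527272 on the plus strand.

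Promoters are shown because these genes are known to share interferon and NLRC5 elements, and because *H2-K1* and *H2-D1* are neighbours in function that differed between the libraries. RefSeq windows (GRCm38.p6, 250 bases before to 50 after the annotated start) were found for 8 of the 10 members, and the 250 bases before the start of 6 of them are given 5′ to 3′ on the gene's strand. *Tap2* and *Nlrc5* had no entry. The RefSeq starts do not all match the GENCODE spans given above. The windows of *H2-D1*, *Psmb8*, *Psmb9* and *Tapbp* lie inside the GENCODE spans of these genes, and that of *H2-T23* reaches into its span. All distances below count from the RefSeq start. Capitals mark matches to the motifs searched on both strands: the NF-kB site GGGATTCCC, the X2 box TGACGC, the inverted CCAAT box of the SXY module, called the Y box here, the interferon-stimulated response element GAAANNGAAA and the gamma-activated site TTCNNNGAA. The windows are chr17:34000348-34000597 (minus) for *H2-K1*, chr17:35262844-35263093 (plus) for *H2-D1*, chr17:36032702-36032951 (minus) for *H2-T23*, chr2:122147437-122147686 (plus) for *B2m*, chr17:34197945-34198194 (plus) for *Psmb8* and chr17:34187331-34187580 (minus) for *Psmb9*.
H2-K1: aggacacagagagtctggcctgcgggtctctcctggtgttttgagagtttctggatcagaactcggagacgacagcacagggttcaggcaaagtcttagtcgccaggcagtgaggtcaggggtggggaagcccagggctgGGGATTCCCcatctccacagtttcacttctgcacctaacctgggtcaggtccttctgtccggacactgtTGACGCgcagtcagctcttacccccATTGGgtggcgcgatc
H2-D1: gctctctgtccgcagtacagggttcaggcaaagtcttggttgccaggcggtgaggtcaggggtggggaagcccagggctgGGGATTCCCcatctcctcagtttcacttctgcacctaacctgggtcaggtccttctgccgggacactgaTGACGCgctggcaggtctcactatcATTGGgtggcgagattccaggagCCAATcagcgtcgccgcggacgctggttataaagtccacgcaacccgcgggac
H2-T23: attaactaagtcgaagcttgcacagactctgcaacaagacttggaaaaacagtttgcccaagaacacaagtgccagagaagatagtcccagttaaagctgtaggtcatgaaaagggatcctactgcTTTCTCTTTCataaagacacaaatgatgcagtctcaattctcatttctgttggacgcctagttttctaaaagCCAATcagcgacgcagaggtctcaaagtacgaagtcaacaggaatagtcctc
B2m: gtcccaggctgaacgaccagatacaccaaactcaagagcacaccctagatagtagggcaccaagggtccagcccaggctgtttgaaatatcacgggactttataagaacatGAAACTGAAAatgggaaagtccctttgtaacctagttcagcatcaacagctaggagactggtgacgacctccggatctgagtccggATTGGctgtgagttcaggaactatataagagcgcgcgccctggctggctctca
Psmb8: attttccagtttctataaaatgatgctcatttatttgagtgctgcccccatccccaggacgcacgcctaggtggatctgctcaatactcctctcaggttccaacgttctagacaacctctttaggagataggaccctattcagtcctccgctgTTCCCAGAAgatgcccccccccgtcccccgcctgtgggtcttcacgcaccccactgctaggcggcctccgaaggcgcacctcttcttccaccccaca
Psmb9: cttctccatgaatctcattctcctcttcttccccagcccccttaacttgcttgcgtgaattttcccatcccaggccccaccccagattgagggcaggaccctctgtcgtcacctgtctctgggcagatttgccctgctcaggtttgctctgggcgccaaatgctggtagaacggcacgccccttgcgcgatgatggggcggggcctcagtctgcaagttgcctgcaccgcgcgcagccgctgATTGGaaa

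*H2-K1* and *H2-D1* carried 3 elements in the same order. In *H2-K1* the NF-kB site began 110 bases before the start, the X2 box 41 and the Y box 16, and in *H2-D1* they began 170, 101 and 76 bases before it. Each window held a further Y box on the other strand, in *H2-D1* 53 bases before the start and in *H2-K1* 8 bases after it, outside the printed stretch. Both windows shared a run of 47 bases around the NF-kB site, and 176 of 240 bases (73.3%) were identical where they could be laid over each other without gaps. Among all 32851 RefSeq windows of 300 bases, 0.353% held the NF-kB letters, 7.40% the X2 box and 37.4% the Y box. *B2m* held the interferon element GAAACTGAAA 139 bases before its start and a Y box at 53, and *H2-T23* held the interferon element on the other strand at 124, letters that 3.44% of all windows hold. *Psmb8* held the gamma-activated site TTCCCAGAA 97 bases before its RefSeq start but inside its GENCODE span, letters that 8.30% of all windows hold. *Tap1* held the Y box at 222 bases before its start, *Tapbp* at 248 and 165 and *Psmb9* at 8, and within a window no matches overlapped. The RefSeq starts of *Tap1* and *Psmb9* lie 226 bases apart and their genes run in opposite directions. A shared stretch of 275 bases therefore belongs to both windows, and the Y boxes of *Tap1* and *Psmb9* are the same bases read on opposite strands. A match describes letters only and names no bound factor. Elements with other letters than those searched are not marked, so that a window without a match may still hold one.

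The libraries held 94903163 UMIs (control), 103319588 (MRL/lpr) and 90812138 (treated), and barcodes with at least 1000 UMIs and at most 10% mitochondrial UMIs were taken as cells, which left 11018, 14109 and 16586 with a median of 5069, 3716 and 2727 UMIs. Cells were placed into classes by marker genes and are called endothelial-like and so on, and 4.66%, 17.9% and 27.5% stayed without a class. The 10 leading genes of each class held at least 1 of its own markers and 0 of another class. Cells were placed by these same markers, so this does not check what the cells are. Most sums of another class's markers lay below those of droplets with at most 100 UMIs. Exceptions included mesangial markers in smooth muscle and renin-like cells, with 3599 (MRL/lpr) and 4475 (treated) of 1000000 UMIs against 1751 and 1994. Macrophage markers in neutrophil-like cells were another, with 4130 and 3787 against 1958 and 2728. The classes that were compared held at least 50 cells in both libraries. Endothelial-like cells numbered 5735, 4082 and 5044, mesangial-like cells 1162, 1903 and 2042, podocyte-like cells 2483, 1057 and 268, and macrophage-like cells 102, 1897 and 2627. Proximal tubule-like cells numbered 61, 548 and 101, so the control level of that class rests on few cells. Control and MRL/lpr cells shared 35 barcodes, control and treated cells 39 and MRL/lpr and treated cells 61, where equal draws from all barcodes would share 22.9, 26.9 and 34.4. Free RNA, read from droplets with at most 100 UMIs and called empty droplets, made up an estimated 3.9% of the UMIs of endothelial-like cells in control, 9.7% in MRL/lpr and 8.0% in treated mice. *Fas* had 381 of 1000000 UMIs in the endothelial-like class of control mice, 445 in MRL/lpr mice and 453 in treated mice, and so does not check the lpr label.

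Levels are UMIs of a gene per 1000000 UMIs of the class (CPM). Each molecule is counted by a tag at its 3′ end, so that levels of different genes do not scale with length. Intervals are exact 95% intervals, Poisson for levels and conditional binomial for ratios, and they cover counting error only. *H2-D1* was the most abundant member in endothelial-like cells, with 5566 CPM in control mice, 4319 in MRL/lpr mice and 4523 in treated mice. *H2-K1* followed with 2113, 3259 and 3737 CPM, and *B2m* had 1865, 2565 and 3540 CPM. The non-classical chain *H2-T23* had 318, 456 and 513 CPM. The peptide machinery was counted far less often than *H2-K1* and *B2m*: *Psmb8* had 380.5, 506 and 571.5 CPM and *Psmb9* 258, 431 and 508. *Tapbp* had 108, 124 and 127 CPM, *Tap2* 99.2, 116 and 108, and *Tap1* 51.4, 61.3 and 67.2. *Nlrc5* was the only one of the 10 that was highest in control mice and lowest in treated mice in this class, with 112, 83.4 and 63.4 CPM.

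Podocyte-like cells led all classes for *H2-D1* in each library, with 6185 CPM in control, 5725 in MRL/lpr and 6401 in treated mice, and they led for *Tapbp* with 158, 194.5 and 247 CPM. In the control library the *Tapbp* level of podocyte-like cells overlapped that of macrophage-like cells, at 145 CPM. Endothelial-like cells led for *H2-T23* in each library. For *H2-K1* endothelial-like cells led in control and MRL/lpr mice and mesangial-like cells, with 3826 CPM, in treated mice. *B2m* was highest in macrophage-like cells of control mice (2283 CPM) and of MRL/lpr mice (2692 CPM, with an interval that overlapped that of neutrophil-like cells at 2584), and in mesangial-like cells of treated mice (4110 CPM). Proximal tubule-like cells were lowest for *H2-K1*, *H2-D1*, *B2m* and *Tap1* in each library, although their intervals overlapped those of the next class for *Tap1* in each library and for *H2-K1* and *B2m* in treated mice. With free RNA subtracted, erythroid-like cells were lower than proximal tubule-like cells for *H2-K1* and *H2-D1* in treated mice, for *B2m* in both MRL/lpr libraries and for *Tap1* in untreated MRL/lpr mice.

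The span between the highest and the lowest class was widest in control mice for each of the 10 genes. For all but *H2-T23* the lowest class in control mice was proximal tubule-like, with only 61 cells. It held few UMIs of *Psmb8* (14), *Psmb9* (15), *Tapbp*, *Tap1*, *Tap2* and *Nlrc5*, so that the control spans of these genes are imprecise. For *H2-K1* the highest class had 10.6 times the lowest in control mice, 4.83 times in MRL/lpr mice and 2.20 times in treated mice. For *B2m* these ratios were 9.12, 2.77 and 1.81, and for *Psmb8* they were 23.9, 4.08 and 2.64. The low end moved most: *B2m* in proximal tubule-like cells had 250.2 CPM (95% interval 212 to 293), 970.6 (939.5 to 1003) and 2272 (2163 to 2385). The estimated share of free RNA in this class was 6.9%, 10.6% and 24.5%. With free RNA subtracted, an alternative chosen after seeing the data, the ratios of highest to lowest were 16.1, 6.81 and 4.09 for *H2-K1*, 13.3, 3.49 and 2.09 for *B2m* and 80.6, 8.90 and 4.28 for *Psmb8*, and control mice had the widest span for 8 of 10 members. The exceptions were *Tap1*, with 9.53 in control and 22.8 in MRL/lpr mice, and *H2-T23*, with 7.62 and 8.74. For *H2-T23* the lowest class in MRL/lpr mice was smooth muscle and renin-like (54.9 CPM), which had too few cells in the control library, and the next lowest had 112 CPM beside 479 in the highest, a narrower span than in control mice. These ratios do not all rest on the same lowest class: it was proximal tubule-like in control mice for *H2-K1*, *B2m*, *Psmb8* and *Tap1*, and after the subtraction erythroid-like for *Psmb8* and *B2m* in both MRL/lpr libraries, for *H2-K1* in treated mice and for *Tap1* in untreated MRL/lpr mice (3.1 CPM). *Psmb8* was lowest in erythroid-like cells of both MRL/lpr libraries before it as well.

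**Figure D1:**
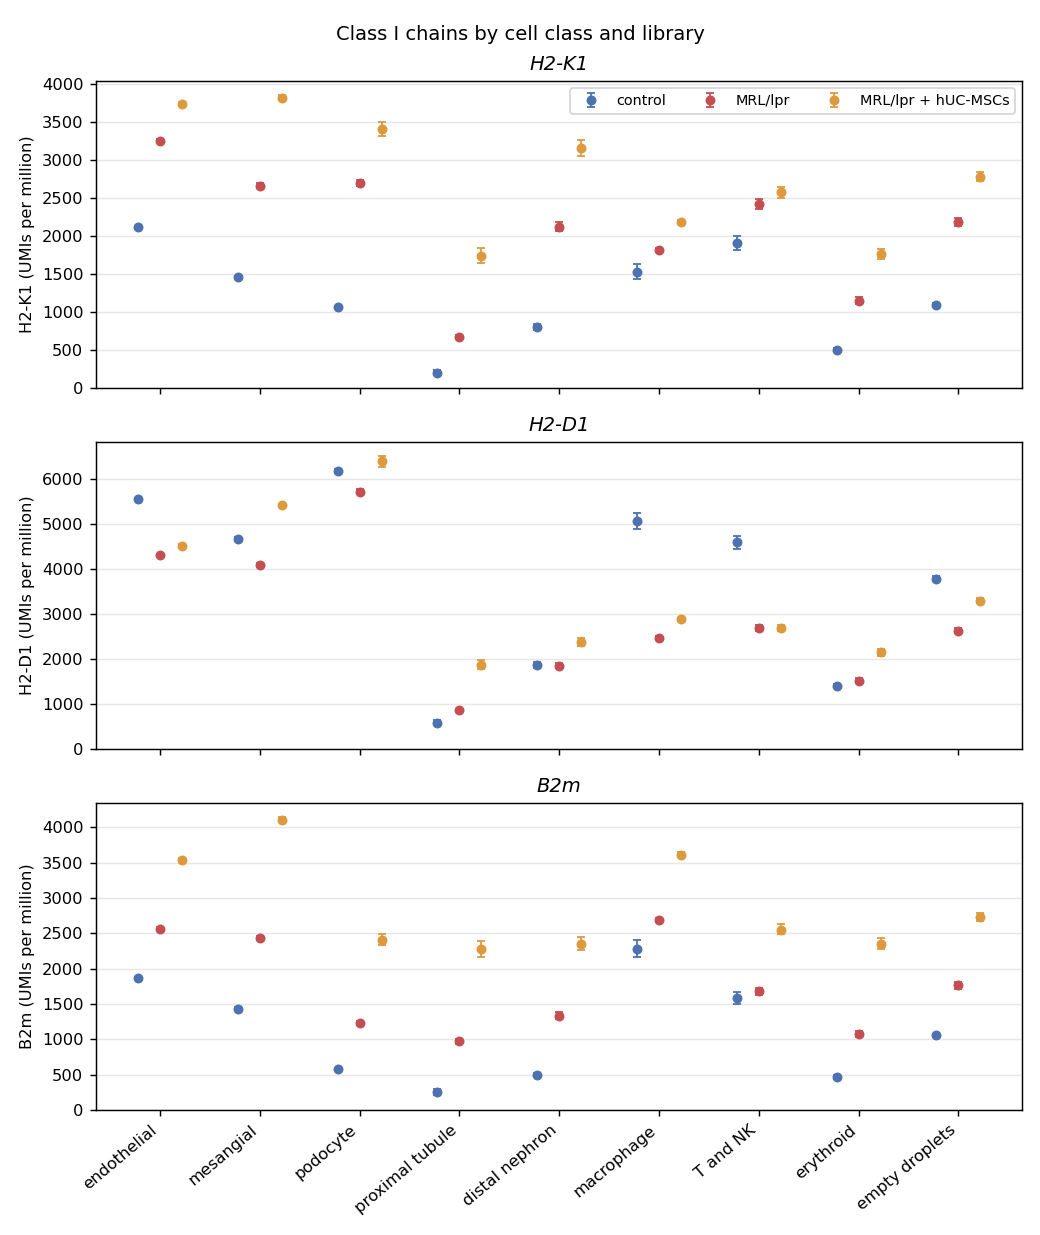
UMIs per 1000000 UMIs (vertical axis, linear) of *H2-K1*, *H2-D1* and *B2m* in 8 cell classes and in empty droplets (horizontal axis), with 1 point per library and exact 95% Poisson intervals of counting error as bars. *H2-K1* and *B2m* were lowest in control mice and highest in treated mice in each class, while *H2-D1* was highest in control mice in endothelial-like, macrophage-like and T and NK-like cells and in empty droplets.

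*H2-K1* and *B2m* were higher in MRL/lpr than in control mice in most classes, and by least in macrophage-like and T and NK-like cells. Over the 8 classes that both libraries allowed, *H2-K1* was higher in 8, with log2 ratios from 0.24 in macrophage-like to 1.75 in proximal tubule-like cells. *B2m* had an interval above 0 in 7 classes, from 0.24 in macrophage-like to 1.96 in proximal tubule-like cells, and in T and NK-like cells it had 0.09 (-0.00 to 0.18). Intervals above 0 were common: 34.3% of all genes tested had one in endothelial-like, 32.0% in mesangial-like, 29.4% in podocyte-like, 17% in proximal tubule-like, 23.3% in distal nephron-like, 10.4% in macrophage-like, 12.3% in T and NK-like and 46.4% in erythroid-like cells. Endothelial-like cells had log2 ratios of 0.62 for *H2-K1* (95% interval 0.61 to 0.64) and 0.46 for *B2m* (0.44 to 0.48). None of the 10 members reached a 2-fold difference there, where 11.6% of all 15051 genes were at least 2-fold higher and 6.01% at least 2-fold lower. The median over the members was 0.33, beside 0.04 over all genes. Mesangial-like cells had 0.87 for *H2-K1* and 0.76 for *B2m*, again with 0 members past 2-fold, beside 11.7% and 5.91% of all genes.

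Podocyte-like cells of MRL/lpr mice had 4 members at least 2-fold higher and 0 lower, beside 13.1% and 5.18% of 13197 genes. *Psmb8* had 88.0 CPM in control, 290.1 in MRL/lpr and 327 in treated mice, a log2 ratio of 1.72 between the first pair (1.63 to 1.82). *H2-K1* had 1069, 2696 and 3410 CPM and a log2 ratio of 1.33 (1.31 to 1.36), *B2m* 575, 1232 and 2408 CPM and 1.1 (1.06 to 1.14), and *Psmb9* 122, 252 and 248 CPM and 1.04 (0.95 to 1.13). All 4 levels were lowest in control mice. *Tap1*, a subunit of the peptide pump, had 38.7, 32.0 and 27.9 CPM and was lower in MRL/lpr than in control mice, with a log2 ratio of -0.28 (-0.49 to -0.06), while the interval of treated over MRL/lpr mice held 0 (-0.70 to 0.27). The median of the 10 was 0.62, beside -0.01 over all genes. Markers of macrophages, a class rich in *Psmb8*, summed to 11.7, 258 and 433 CPM in podocyte-like cells, with an estimated 3.0%, 11.7% and 14.2% of their UMIs from free RNA, and with the free RNA subtracted, as under each of the alternatives tried, 4 to 5 members were past 2-fold. The part of macrophage RNA beyond that was not tested.

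*H2-D1* differed from its partner *H2-K1*. Its level in macrophage-like cells was 5077 CPM in control mice, 2475 in MRL/lpr mice and 2883 in treated mice, a log2 ratio of -1.04 (-1.09 to -0.98) for MRL/lpr over control mice. The leading genes of this class were shared in part only. *Lyz2* and *Wfdc17* were among them in all 3 libraries, and *C1qc* in both MRL/lpr libraries. *Cd74* and *Il1b* were among them only in the 102 control cells. *Cd5l* and *Fcna* were so only in untreated MRL/lpr mice, and *Trem2* and *Gpnmb* only in treated mice. The part of this mix was not tested. *H2-D1* was the only member past 2-fold in that class, where 14.8% of 12031 genes were at least 2-fold lower and 9.69% higher. The median of all genes was -0.16 in this comparison, and with ratios centred on it, or with totals that leave out mitochondrial, ribosomal-protein and haemoglobin genes, *H2-D1* was no longer past 2-fold. T and NK-like cells had 4595, 2694 and 2689 CPM of *H2-D1* and a log2 ratio of -0.77 (-0.83 to -0.71). There 0 members were past 2-fold, beside 9.59% of all genes higher and 6.18% lower. *H2-D1* was lower by less in endothelial-like (-0.37), mesangial-like (-0.19) and podocyte-like cells (-0.11), and higher in proximal tubule-like cells (0.56, 0.41 to 0.72). Erythroid-like cells had 0.11, below the 0.64 of all genes there, and with free RNA subtracted their level was 1234 CPM in control and 1119 in MRL/lpr mice. In distal nephron-like cells it had 1869.5, 1855 and 2374 CPM and an interval that holds 0.

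The UMIs of *H2-K1* for each UMI of *H2-D1* give a ratio that no scaling of the libraries can move. It was 0.38 in endothelial-like cells of control mice, 0.755 in MRL/lpr mice and 0.826 in treated mice. In podocyte-like cells it was 0.173 (95% interval 0.170 to 0.176), 0.471 and 0.533, and in macrophage-like cells 0.301, 0.732 and 0.758. Distal nephron-like cells of MRL/lpr and treated mice counted more *H2-K1* than *H2-D1*, with ratios of 1.145 and 1.33 beside 0.427 in control mice. The same step between control and MRL/lpr mice stood in the empty droplets, with 0.287, 0.831 and 0.843. In all 8 classes and in empty droplets the ratio of control mice lay below that of both MRL/lpr libraries, and the intervals did not overlap. The part that haplotype and the alignment of reads have in it was not tested. Of the 90-base stretches in the last 500 bases of their transcripts, 2.31% for *H2-K1*, 8.93% for *H2-D1* and 4.40% for *H2-T23* also occur in another gene, and 0 for the other 7 members.

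**Figure D2:**
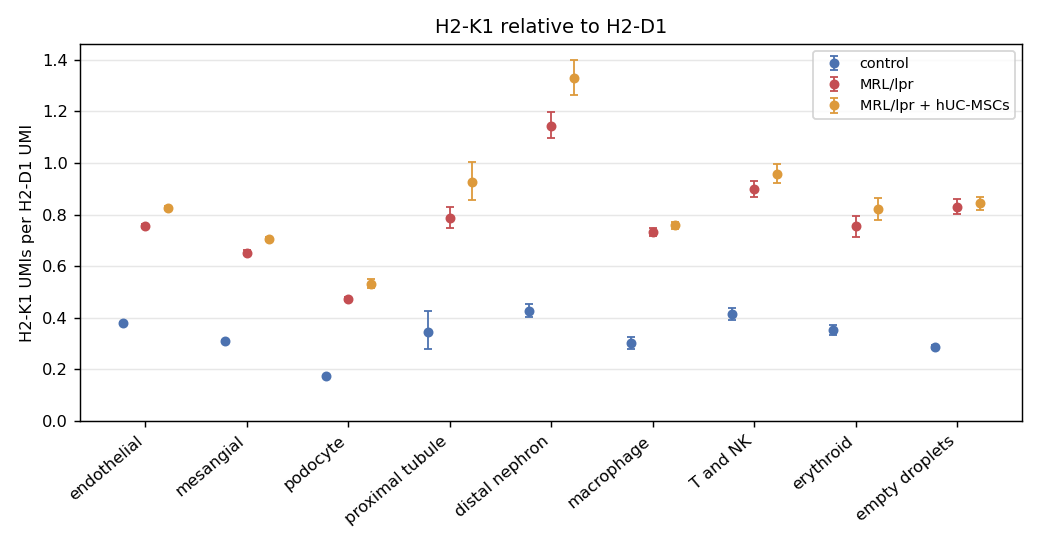
*H2-K1* UMIs per *H2-D1* UMI (vertical axis, linear, from 0) in 8 cell classes and in empty droplets (horizontal axis), with 1 point per library and exact 95% intervals of counting error. The points of control mice lie between 0.173 and 0.427, below both MRL/lpr libraries in each class.

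Some other class I genes of the H2 complex differed more between control and MRL/lpr mice than *H2-K1* and *H2-D1*. *H2-Q7* and *H2-Q6* belong to the Qa-2 group of non-classical chains, near-identical copies between which the alignment may split reads. *H2-Q7* in podocyte-like cells had 908.5 CPM in control mice, 25.7 in MRL/lpr mice and 22.2 in treated mice, and *H2-Q6* had 766.9, 3.3 and 3.2 CPM. In endothelial-like cells *H2-Q6* had 74.1, 7.8 and 4.6 CPM and *H2-Q7* 63.7, 31.7 and 30.5, and in macrophage-like cells *H2-Q6* had 117, 1.8 and 0.9 CPM. In empty droplets *H2-Q7* was also highest in control mice, with 221, 13.2 and 13.4 CPM. *H2-Q4* differed by less in endothelial-like cells, with 677, 576 and 525 CPM. Of the 13 other class I and class I-like genes counted often enough in endothelial-like cells, 1 was at least 2-fold higher in MRL/lpr mice (*H2-Q2*, log2 ratio 1.14) and 2 were lower (*H2-Q6*, -3.25, and *H2-Q7*, -1.01), beside 11.6% and 6.01% of all genes, and the median of the 13 was -0.23 beside 0.04. *H2-T24*, a further non-classical gene, was at least 2-fold lower in mesangial-like (-1.73), macrophage-like (-3.10) and T and NK-like cells (-1.47). *H2-T10* was not found in the count tables.

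The whole stretch from *Tapbp* to *H2-T23* (chr17:33915899-36032855) holds 146 genes besides the members. Between MRL/lpr and control mice, 27 of 106 of these (25.5%) were past 2-fold in either direction in endothelial-like cells, beside 17.6% of all genes. In mesangial-like cells it was 30 of 100 (30.0%, beside 17.6%), in podocyte-like cells 24 of 95 (25.3%, beside 18.3%) and in macrophage-like cells 24 of 91 (26.4%, beside 24.5%). Between treated and untreated MRL/lpr mice, the region had 8 of 104 (7.69%, beside 11.8%) in endothelial-like cells. Mesangial-like cells had 9 of 100 (beside 9.99%). Podocyte-like cells had 10 of 85 (11.8%, beside 10.0%) and macrophage-like cells 10 of 99 (10.1%, beside 8.31%). The part of haplotype in the differences between control and MRL/lpr mice was not tested.

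*H2-T23* did not share one direction over the classes. It was higher in MRL/lpr mice in endothelial-like (0.52, 0.48 to 0.56), podocyte-like (0.56), proximal tubule-like (1.00) and distal nephron-like cells (1.19, 0.86 to 1.52). In mesangial-like cells it had 213 CPM in control, 195 in MRL/lpr and 249.7 in treated mice, a log2 ratio of -0.12 (-0.20 to -0.05) that turned positive under some alternatives. In macrophage-like and T and NK-like cells its intervals held 0.

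Among the genes of peptide transport and loading, differences were small in the glomerular classes. *Tap1* had a log2 ratio of MRL/lpr over control mice of 0.25 in the endothelial-like class (0.14 to 0.36), *Tap2* 0.23 (0.15 to 0.31) and *Tapbp* 0.21 (0.13 to 0.29). Mesangial-like cells had 0.60 for *Tap1*, with 26.3, 39.9 and 51.0 CPM in control, MRL/lpr and treated mice, 0.35 for *Tap2* and 0.59 for *Tapbp*. Macrophage-like and T and NK-like cells had intervals that hold 0 for all 3 genes. Of 7 further loading and trimming genes (*Calr*, *Canx*, *Pdia3*, *Tapbpl*, *Erap1*, *Hspa5* and *Sec61a1*) 0 were past 2-fold in endothelial-like, mesangial-like or podocyte-like cells, beside 17.6%, 17.6% and 18.3% of all genes, and the median in endothelial-like cells was 0.02 beside 0.04. In T and NK-like cells 2 of 7 were lower, beside 6.18% of all genes: *Pdia3*, an oxidoreductase of the loading complex, with a log2 ratio of -1.33 and *Hspa5*, a chaperone, with -1.12.

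The immunoproteasome subunits were higher in MRL/lpr mice in most classes. *Psmb9* was higher in 8 of 8 classes, with log2 ratios from 0.50 in macrophage-like to 2.58 in proximal tubule-like cells, and in endothelial-like cells it had 0.74 (0.70 to 0.79). *Psmb8* had an interval above 0 in 7 of 8 classes, with 0.41 in endothelial-like cells and 0.45 in mesangial-like cells. *Psmb10*, the third inducible catalytic subunit (with 264.7, 254 and 230.0 CPM in endothelial-like and 79.6, 124 and 122 CPM in podocyte-like cells), had log2 ratios of -0.06 and 0.63 in these classes for MRL/lpr over control mice. The activator subunits *Psme1* and *Psme2* had 0.04 and -0.06 in the endothelial-like class. The 14 constitutive subunits listed had a median of 0.17 in the same cells, beside 0.04 over all genes, and 0 of 14, as 0 of the 3 genes before, were past 2-fold, beside 17.6% of all genes in either direction.

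Each inducible subunit takes the place of a constitutive one, and the ratio within a pair does not depend on the totals. In endothelial-like cells there were 2.06 UMIs of *Psmb8* for each of *Psmb5* in control mice, 2.71 in MRL/lpr mice and 2.74 in treated mice, and 1.36, 2.21 and 2.50 of *Psmb9* for each of *Psmb6*. Mesangial-like cells had 1.13, 1.56 and 1.97 for *Psmb8* over *Psmb5* and 0.51, 1.01 and 1.39 for *Psmb9* over *Psmb6*. Podocyte-like cells had more of the constitutive subunit in control mice, with 0.280 (0.265 to 0.296) for *Psmb8* over *Psmb5*, and came close to 1 in MRL/lpr (0.852) and treated mice (1.01). Macrophage-like cells had the reverse order for this pair, with 2.78, 2.36 and 1.99, and for *Psmb9* over *Psmb6*, with 1.90, 1.74 and 1.05, although the intervals of control and MRL/lpr mice overlapped. In this class *Psmb8* itself had 539, 588 and 509 CPM and *Psmb9* 271, 384 and 344 CPM. Neither inducible subunit was thus lower in MRL/lpr than in control mice. *Psmb10* over *Psmb7* was lower in the endothelial-like class of MRL/lpr mice than of control mice, with 4.06, 3.19 and 3.16, so that the 3 pairs did not move as 1 unit in this class.

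**Figure D3:**
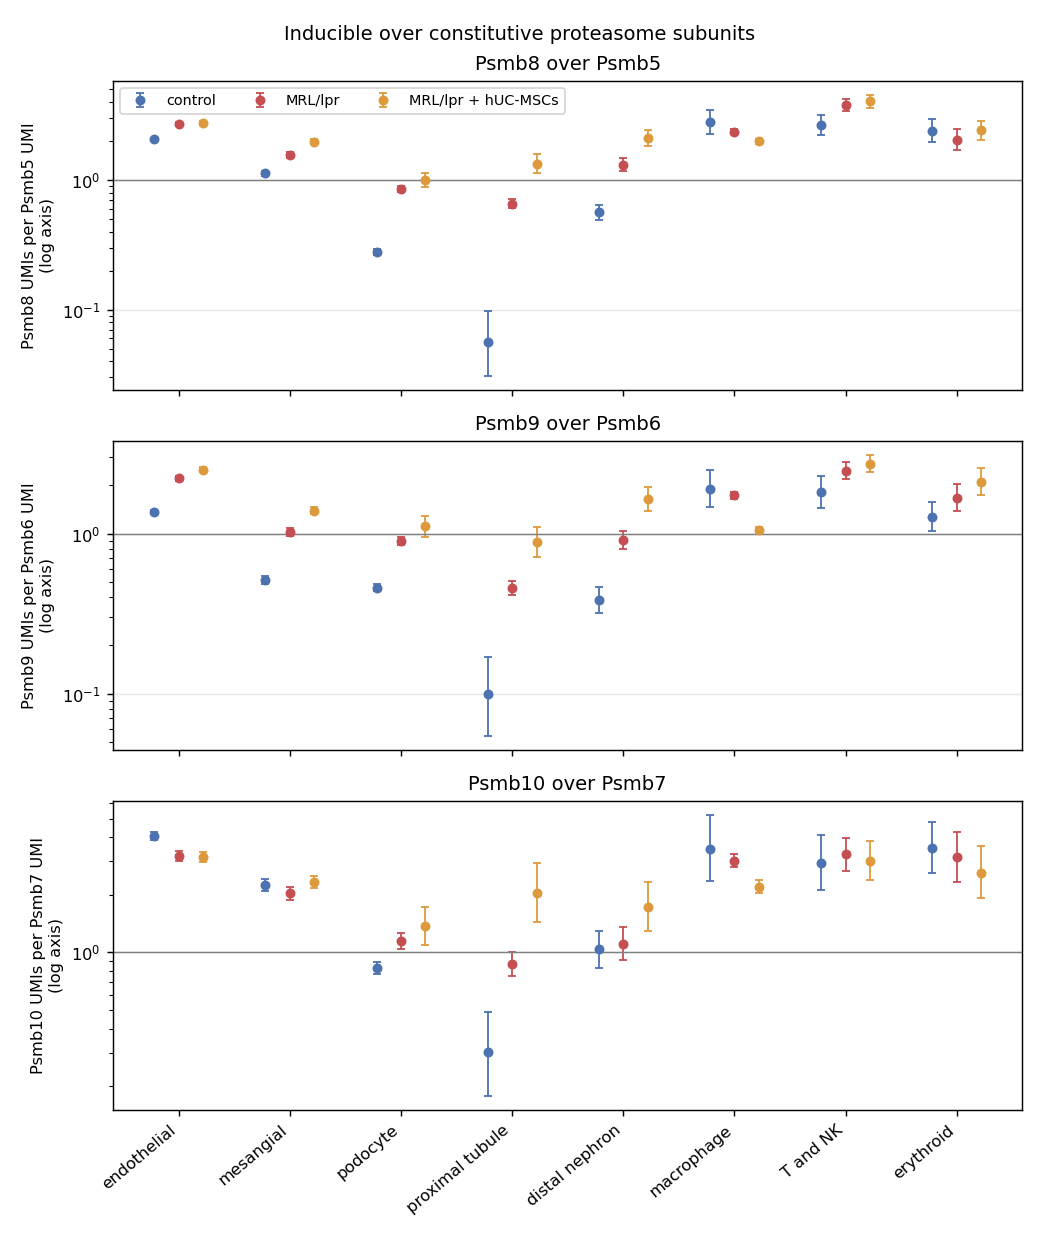
UMIs of an inducible proteasome subunit per UMI of the constitutive subunit it replaces (vertical axis, log scale; the grey line marks 1) in 8 cell classes (horizontal axis), with 1 point per library and exact 95% intervals of counting error. *Psmb8* over *Psmb5* in proximal tubule-like cells was 0.057, 0.658 and 1.34 in control, MRL/lpr and treated mice, while the ratios of endothelial-like cells stayed above 1 in all 3 libraries and pairs.

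Proximal tubule-like cells, which are not part of the glomerulus and remained from the preparation, had the largest ratios of MRL/lpr over control mice for all members but *H2-T23*. That gene had its largest ratio, 1.19, in distal nephron-like cells. Of the 10 members 7 were at least 2-fold higher and 0 lower in MRL/lpr than in control mice, beside 17.2% and 4.01% of 10795 genes, and the median was 1.85 beside 0.21 over all genes. *Psmb8* had 22.6 CPM in control mice (12.4 to 37.9; 14 UMIs), 254 in MRL/lpr mice (238.5 to 271) and 490.1 in treated mice (440 to 544), a log2 ratio of 3.49 (2.74 to 4.37). *H2-K1* had 200.2 CPM (166 to 239), 675 (649 to 702) and 1738 (1643 to 1838). The order of the 3 libraries was the same for both genes, with no overlap of intervals. The control counts behind *Psmb9* (15 UMIs), *Tapbp* (16), *Tap2* (5) and *Nlrc5* (3) were low. These 4, like *Psmb8* and *Tap1* (9.7 CPM in control mice), were under the count minimum in control mice. They passed it only with the UMIs of the MRL/lpr library, so that the count of 7 and the median of 1.85 support nothing by themselves. The members above the minimum in control mice had log2 ratios of 1.75 (*H2-K1*), 0.56 (*H2-D1*), 1.00 (*H2-T23*) and 1.96 (*B2m*). With the *Psmb5* UMIs of the same cells as the measure, *Psmb8* had 0.057 (0.031 to 0.097), 0.658 (0.606 to 0.715) and 1.34 (1.14 to 1.58).

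Cells of this class held RNA of other classes in unequal amounts. The summed level of 10 endothelial markers in proximal tubule-like cells was 383 CPM in control, 534 in MRL/lpr and 1137 in treated mice, with UMIs of 9, 10 and 10 markers. Macrophage markers summed to 25.8, 211 and 619 CPM, with 4, 11 and 11 of 11 seen. Mesangial markers summed to 202, 269.9 and 895 CPM, while podocyte markers went the other way, with 1245, 573 and 377 CPM. The estimated share of free RNA was 6.9%, 10.6% and 24.5%. After the UMIs expected from empty droplets were subtracted, *H2-K1* had 134, 495.5 and 1399 CPM, *B2m* 190.4, 876 and 2121, and *Psmb8* 7.5, 237 and 513, so that the order remained. *Psmb8* over *Psmb5* was then 0.018, 0.585 and 1.23. After each cell was thinned to 1000 UMIs, an *H2-K1* UMI was found in 18.0% of control proximal tubule-like cells. In MRL/lpr mice it was 45.6% and in treated mice 72.3%. These shares were not corrected for free RNA and count cells with a UMI, not cells that express the gene.

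Some genes of the related lists were past 2-fold in proximal tubule-like cells, of which the control library held only 61. Of 9 regulators 4 were at least 2-fold higher and 0 lower, beside the 17.2% and 4.01% of all genes given above, and 3 of them are named here: *Creb1*, a factor that binds the X2 box, with a log2 ratio of 1.40, *Nfya*, which binds the Y box, with 1.85 and *Rfxap*, a subunit of the RFX complex at the X1 box, with 1.08. Of 7 loading and trimming genes 2 were higher, *Erap1*, a peptidase that trims peptides, with 1.69 and *Sec61a1*, a channel subunit, with 1.34. Over treated and control mice only 7 of the regulators reached the count minimum. Some of the 9 therefore passed it above only with the UMIs of the MRL/lpr library. With a control level that rests on few cells, the counts of 4 and 2 support nothing by themselves. *Psmb10* had 35.5, 94.6 and 142 CPM and a log2 ratio of 1.41, and *Psme1* and *Psme2* had 0.99 and 0.63. The 14 constitutive subunits had a median of -0.06 and 0 past 2-fold. Distal nephron-like cells had 6 of 10 members at least 2-fold higher and 0 lower, beside 12.6% and 3.52% of 11054 genes, with 1.44 for *B2m*, 1.41 for *H2-K1* and 1.33 for *Psmb9*, and after thinning each cell to 1000 UMIs 3 members were past 2-fold. Their summed macrophage markers were 28.0, 309 and 398 CPM, and the part of these was not tested.

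Erythroid-like cells are no measure of the pathway here. They had 4 members at least 2-fold higher in MRL/lpr mice, *H2-K1*, *B2m*, *H2-T23* and *Psmb9*, but 29.3% of all genes were as well and 1.57% were lower, the median of all genes was 0.64, and free RNA made up an estimated 6.8% of their UMIs in control, 26.5% in MRL/lpr and 43.7% in treated mice.

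*Nlrc5*, the transactivator of the set, had another order over the libraries than *H2-K1* and *B2m* in endothelial-like and mesangial-like cells. Its level in endothelial-like cells was 112 CPM in control, 83.4 in MRL/lpr and 63.4 in treated mice, log2 ratios of -0.43 (-0.51 to -0.34) for MRL/lpr over control and -0.40 (-0.50 to -0.29) for treated over MRL/lpr mice. Mesangial-like cells had 114, 97.1 and 95.9 CPM. In podocyte-like cells, where it was counted least in MRL/lpr mice, *Nlrc5* had 14.6, 23.4 and 27.9 CPM and a log2 ratio of 0.67 (0.39 to 0.96) for MRL/lpr over control mice. Distal nephron-like cells had 18.1, 40.1 and 69.8 CPM.

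*Irf1*, an interferon-induced activator of class I and proteasome genes, had 1914 CPM in endothelial-like cells of control mice, 1455 in MRL/lpr mice and 371 in treated mice, and 1312, 1006 and 220 CPM in mesangial-like cells. In podocyte-like cells it had 142, 247 and 127 CPM, and in proximal tubule-like cells 102, 162 and 112, below the 715, 592 and 311.5 CPM of empty droplets. The treated library was thus lowest for *Irf1* in endothelial-like and mesangial-like cells while it was highest for *H2-K1*, *B2m* and *Psmb9* in both. Of 10 regulators 0 were past 2-fold in endothelial-like cells between MRL/lpr and control mice, beside 11.6% of all genes higher and 6.01% lower, with a median of -0.01. Between treated and untreated mice 1 of 10, *Irf1*, was at least 2-fold lower and 0 higher, beside 4.43% and 7.32% of all genes. In macrophage-like cells 2 of 10 were at least 2-fold lower in MRL/lpr than in control mice and 0 higher, beside 14.8% and 9.69% of all genes, and 1 of them is named here, *Rfx5* (-1.11), the DNA-binding subunit of RFX.

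After hUC-MSCs, *B2m* and *H2-K1* were higher than in untreated MRL/lpr mice in 10 of 10 classes. *B2m* had log2 ratios from 0.39 in neutrophil-like to 1.23 in proximal tubule-like cells, with 0.46 (0.45 to 0.48) in endothelial-like, 0.76 in mesangial-like and 0.97 (0.91 to 1.02) in podocyte-like cells. *H2-K1* had from 0.09 in T and NK-like to 1.36 in proximal tubule-like cells, with 0.20 in endothelial-like and 0.52 in mesangial-like cells. Of all genes tested, 35.2% had an interval above 0 in endothelial-like, 31.2% in mesangial-like, 14.3% in podocyte-like, 10.7% in proximal tubule-like, 8.18% in distal nephron-like, 11.7% in macrophage-like, 12% in neutrophil-like, 10.6% in T and NK-like, 8.11% in smooth muscle and renin-like and 45.4% in erythroid-like cells. Empty droplets had 0.63 for *B2m* and 0.35 for *H2-K1*. *H2-D1* had 0.07 in endothelial-like cells, which did not keep its sign under every alternative, 0.40 in mesangial-like and 1.13 in proximal tubule-like cells, and -0.24 in neutrophil-like cells.

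In endothelial-like cells 0 members were past 2-fold after treatment, where 7.32% of all genes were higher and 4.43% lower, and the median of the members, 0.15, stood beside 0.13 over all genes. Mesangial-like cells also had 0 (4.16% and 5.83% of all genes), with a median of 0.38 beside 0.11. Podocyte-like cells had 0 (5.77% and 4.24%), with 0.17 beside 0.03, and distal nephron-like cells 0 (2.94% and 3.52%), with 0.50 beside -0.02. Proximal tubule-like cells had 3 higher, *H2-K1*, *H2-D1* and *B2m*, beside 7.09% higher and 7.61% lower, with a median of 0.64 beside -0.09. In smooth muscle and renin-like cells, of which there were 71 and 75, 3 were higher (*B2m* 1.21, *Tap1* 1.38 and *Nlrc5* 1.28), beside 5.93% higher and 4.71% lower, with the interval of *Tap1* holding 0. *Tap1* (17.2 CPM) and *Nlrc5* (37.8 CPM) were under the count minimum in untreated mice and passed it only with the UMIs of the treated library. The count of 3 therefore supports nothing by itself. Macrophage markers summed to 244 CPM in this class of untreated and 578 CPM of treated mice, and their part was not tested. Erythroid-like cells had 2, beside 25.7% higher and 1.77% lower.

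Macrophage-like and neutrophil-like cells did not share the pattern for the proteasome. In macrophage-like cells *Psmb8* had 588 CPM in untreated and 509 in treated mice, a log2 ratio of -0.21 (-0.26 to -0.16), and *Psmb9* 384 and 344 CPM (-0.16, -0.23 to -0.10). In neutrophil-like cells the ratios were -0.40 (-0.61 to -0.21) and -0.23 (-0.44 to -0.03). The median of all genes was -0.10 in macrophage-like and 0.03 in neutrophil-like cells. In macrophage-like cells *Psmb8* and *Psmb9* stayed below 0 under each alternative, reaching -0.11 and -0.06. Free RNA made up an estimated 26.1% of the UMIs of neutrophil-like cells in untreated and 37.8% in treated mice. Its part, and that of the mix of macrophage-like cells described above, was not tested. In these classes 0 members were past 2-fold, beside 2.61% higher and 5.70% lower in macrophage-like and 6.95% and 3.84% in neutrophil-like cells. T and NK-like cells also had 0 (3.54% and 5.92%), with *Psmb8* at 0.20 and *Psmb9* at 0.30. *Fcgrt*, the class I-like Fc receptor that recycles IgG, was at least 2-fold lower in macrophage-like cells of treated mice, with -1.73.

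**Figure D4:**
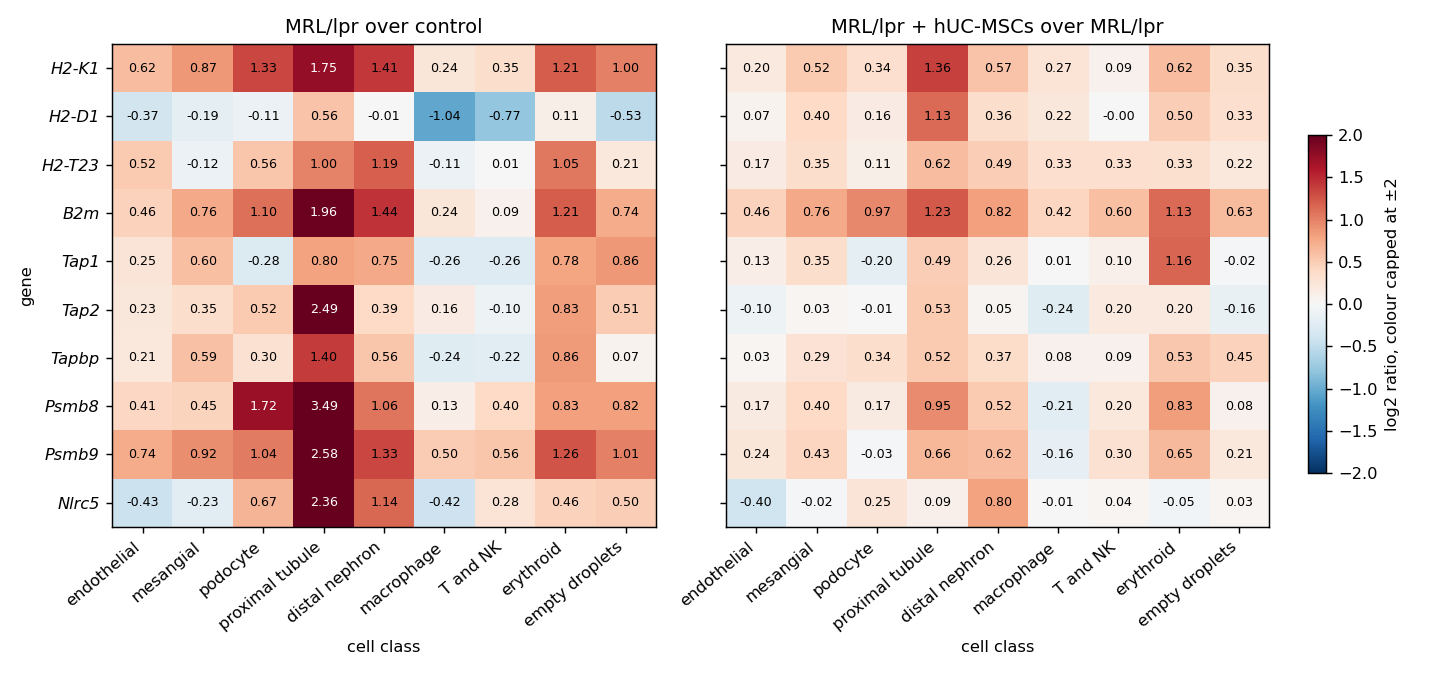
Log2 ratios of CPM of the 10 members (rows) in 8 cell classes and in empty droplets (columns), for MRL/lpr over control mice on the left and MRL/lpr + hUC-MSCs over MRL/lpr mice on the right; colours stop at 2 and -2. On the left, *H2-D1* is the row with the most negative values and proximal tubule-like cells the column with the largest positive ones, and on the right *B2m* is positive in each column, from 0.42 to 1.23. Both sides share the MRL/lpr library.

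Receptors that read class I belong to lymphocytes and myeloid cells. Of the 9 counted often enough in T and NK-like cells, 1 was at least 2-fold higher in MRL/lpr than in control mice and 2 were lower, beside the 9.59% and 6.18% of all genes given above. The higher one was *Pirb*, an inhibitory receptor of myeloid cells, with 30 UMIs beside 0 in control mice, and it passed the count minimum only through the MRL/lpr library. Macrophage markers summed to 109, 589 and 731 CPM in T and NK-like cells of control, MRL/lpr and treated mice, and their part in the values of myeloid receptors was not tested. *Cd8b1*, the beta chain of the CD8 coreceptor, had a log2 ratio of -1.48 and *Klra3*, an inhibitory receptor of NK cells, -1.25. The class pools T and NK cells, and its 10 leading genes held *Gzma*, *Nkg7* and *Cd3d* in both control and MRL/lpr mice. *Prf1* was among them in control but not MRL/lpr mice, and *Gzmb*, *Cd3e* and *Cd3g* in MRL/lpr but not control mice. The part of the mix of T and NK cells was not tested. In treated over untreated mice 1 of 9 was higher, the myeloid receptor *Lilrb4a* with 1.22, and 1 lower, *Cd8b1* with -1.06, beside 3.54% and 5.92% of all genes. In endothelial-like cells *Pirb* and *Lilrb4a* passed the count minimum only through the libraries in which they were high, with 8 and 3 UMIs in control mice, and macrophage markers summed to 60.4, 209 and 420.5 CPM in these cells.

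The study divides endothelial cells by *Cxcl10*, an interferon-induced chemokine, and the members were compared between endothelial-like cells with and without a *Cxcl10* UMI after thinning each cell to 1000 UMIs. Cells with a UMI numbered 1530 (26.7%) in control, 1526 (37.4%) in MRL/lpr and 809 (16%) in treated mice, and they were deeper before thinning, with medians of 5057 against 4053, 4918 against 3480 and 4862 against 2788 UMIs. *Nlrc5* had 157 CPM in *Cxcl10*-positive and 80.6 in *Cxcl10*-negative cells of control mice, a log2 ratio of 0.96 (0.72 to 1.20). In MRL/lpr mice it had 99.6 and 68.9 CPM, a log2 ratio of 0.53 (0.21 to 0.85), and in treated mice 58.1 and 62.1 CPM, with an interval that holds 0 (-0.58 to 0.36).

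The other 9 members had log2 ratios between -0.20 and 0.28 in all 3 libraries, while the median of all genes was -0.11, -0.06 and -0.07. None of the 10 was past 2-fold, beside 0.799%, 0.702% and 1.29% of all genes at least 2-fold higher and 3.99%, 2.24% and 5.31% lower in *Cxcl10*-positive cells. *Irf1* had log2 ratios of 0.88, 0.57 and 0.77. The level of *Cxcl10* itself in all endothelial-like cells was 365, 485 and 132 CPM. Of the 10 members, *Nlrc5* therefore had the largest ratio in control and MRL/lpr mice.

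**Figure D5:**
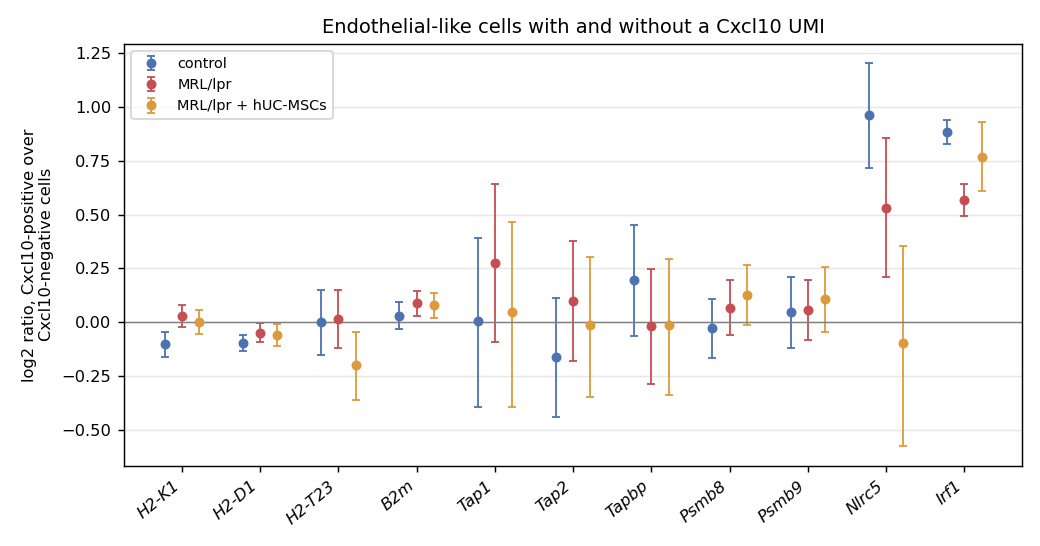
Log2 ratio of *Cxcl10*-positive over *Cxcl10*-negative endothelial-like cells (vertical axis) for the 10 members and *Irf1* (horizontal axis) after thinning each cell to 1000 UMIs, with 1 point per library and exact 95% intervals of counting error. *Nlrc5* has 0.96, 0.53 and -0.10 in control, MRL/lpr and treated mice, and the other 9 members lie between -0.20 and 0.28.

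The members were also summed per cell. Of 1000 UMIs of a cell, a median of 11 were of the 10 members in endothelial-like cells of control mice, 12 in MRL/lpr mice and 14 in treated mice. Mesangial-like cells had 8, 10 and 14, and podocyte-like cells 8, 10 and 11. Macrophage-like cells had 11, 8 and 10 and so were highest in control mice, where *H2-D1* was the largest part of the sum. In proximal tubule-like cells the medians were 1, 3 and 8, and the share of cells with no such UMI was 42.6% in control, 12.8% in MRL/lpr and 0.99% in treated mice. Free RNA made up an estimated 6.9%, 10.6% and 24.5% of the UMIs of that class, and in empty droplets the members made up 6.73, 7.78 and 10.2 of 1000 UMIs, so that these shares count cells with a UMI and not cells that express the genes.

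Over 28 profiles, 1 for each class and library with at least 50 cells, the 10 members were compared with the mean of all of them on the log scale by Pearson correlation. The profiles share libraries and depth, and the values are a description. *H2-K1* followed the mean most closely (0.960), then *Psmb9* (0.938), *Tap2* (0.908), *B2m* (0.896), *Tap1* (0.890) and *Psmb8* (0.888), while *H2-T23* (0.845), *Tapbp* (0.813), *Nlrc5* (0.796) and *H2-D1* (0.787) followed it least. Of 9363 other genes with a mean of at least 10 CPM, those most like the mean were *Cdk17* (0.885), *Slc44a2* (0.879), *Atp1b3* (0.878), *Camk2d* (0.876), *Gramd1a* (0.875), *Slc10a7* (0.869), *Cd47* (0.867), *Slc39a6*, *Rac1* and *H2-Q1* (0.860 each). Of these, *H2-Q1* is a class I gene and *Cd47* the surface ligand that inhibits uptake by macrophages.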

How the data were processed

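UMI counts per gene and barcode were deposited by the authors before any filtering or scaling, 1 table per library with 6794880 barcodes and 32285 genes. Per the labels' processing notes they came from Cell Ranger with STAR on mm10, and the file header names version 4 of Cell Ranger, another than the methods state. Of the gene IDs, 32235 (99.8%) were found in GENCODE M21 (GRCm38). 0 other columns of samples were left out.

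Barcodes with at least 1000 UMIs and at most 10% mitochondrial UMIs were kept, the mitochondrial limit being that of the study. Its limit of 200 to 3000 genes per barcode was run as an alternative, and the rest of its filter was not used. A barcode went to 1 of 12 classes if at least 3 markers were found, if its marker UMIs were at least 1.5 times those that the free RNA of its library would bring and if they exceeded those of the next class 2-fold. These thresholds were set after the data had been seen, and the members and lists were chosen with earlier results of these data known. Doublets were left in and removed with Scrublet only as an alternative. UMIs were summed per class. A gene was compared with at least 20 UMIs over both libraries, a class with at least 50 cells in both, and "past 2-fold" is a description and no test. Named are all 10 members, genes of the lists past 2-fold (all of them in lists of 3 or fewer) and the 10 genes with the most similar profile. Named outside this rule, after values were seen, are the other loading and trimming genes, *Psmb5*, *Psmb6*, *Psmb7*, *H2-Q4*, *H2-T10*, *Cxcl10*, *Fas* and leading genes of classes. For the simulated comparison of MRL/lpr and control mice, the interval held the true ratio for 95.4% of 19643 unchanged genes and for 95.7% to 98.1% of genes changed by 1.5 or 2 on the log2 scale. The simulated counts were Poisson draws without spread between cells or mice, which is the model that the intervals assume. The simulation therefore checks the computation only. Computations ran in Python 3.11.15 with anndata 0.12.19, scanpy 1.11.5, pandas 2.3.3, pyarrow 21.0.0, matplotlib 3.10.9, scipy 1.17.1 and numpy 2.4.6. Promoters were taken from RefSeq (GRCm38.p6). An item withheld from the text is not reported here, and the authors' other experiments were not analysed.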

Additional observations from a re-analysis of the deposited data

Results flagged for a closer look

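*H2-D1* had opposite directions in different classes for the same contrast. In proximal tubule-like cells its log2 ratio of MRL/lpr over control mice was 0.56, and in macrophage-like cells it was -1.04. The difference between these classes was not tested, because each library stands for 1 sample.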

How the results depend on the processing

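No paired analysis was possible because each group has 1 library, so that the shared replicate number 1 pairs nothing. Log2 ratios and counts of members past 2-fold were recomputed under up to 10 alternatives in 7 classes (endothelial-, mesangial-, podocyte-, macrophage-, proximal tubule-, distal nephron- and T and NK-like), while erythroid-, neutrophil- and smooth muscle-like cells and empty droplets were not recomputed. In endothelial-like cells the count stayed at 0 in both comparisons under each of them. For MRL/lpr over control mice the count was 1 in place of 0 in mesangial-like cells with 200 to 3000 genes per barcode and with cells thinned to 1000 UMIs, 0 in place of 1 in macrophage-like cells with totals free of mitochondrial, ribosomal-protein and haemoglobin genes and with ratios centred on the median of all genes, and, in distal nephron-like cells, 3 in place of 6 after thinning and 5 with centred ratios or a wider margin between classes. For treated over MRL/lpr mice it was 1 in place of 0 in podocyte-like cells with doublets removed, after thinning and with free RNA subtracted, 6 in place of 3 in proximal tubule-like cells with 200 to 3000 genes, 4 there under 4 other alternatives, centred ratios among them, and 1 in place of 0 in distal nephron-like cells after thinning. The limit of 200 to 3000 genes left under 50 control cells in proximal tubule-like and distal nephron-like cells and gave no value there. With free RNA subtracted, *H2-T23* in proximal tubule-like cells was also past 2-fold, with 53.8 CPM in control and 115 in MRL/lpr mice. Over the alternatives its log2 ratio there ran from 0.78 to 1.94, and that of *Tap2* from 0.42 to 2.94. Control counts of 3 to 16 UMIs limit the precision of *Nlrc5*, *Tap2*, *Tap1*, *Psmb8*, *Psmb9* and *Tapbp* in proximal tubule-like cells. The causes of these differences between settings were not tested.

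Small ratios did not keep their sign under each alternative. *B2m* in T and NK-like cells ran from -0.08 to 0.18 and in macrophage-like cells from -0.06 to 0.40 for MRL/lpr over control mice, *H2-T23* in mesangial-like cells from -0.17 to 0.15 and *H2-D1* in distal nephron-like cells from -0.12 to 0.18. For treated over MRL/lpr mice *H2-D1* in endothelial-like cells ran from -0.07 to 0.09.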

Other observations

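Cells without a class, 513 in control, 2520 in MRL/lpr and 4561 in treated mice, had 1656, 2561 and 2907 CPM of *H2-K1*, 4989, 3325 and 3324 CPM of *H2-D1* and 1511, 2610 and 3823 CPM of *B2m*. Their order over the libraries for *H2-K1* and *B2m* was that of endothelial-like cells.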
